A study of Homo sapiens with 4 samples.

Results

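Genes that mark the making and the secretion of antibody were examined in mantle cell lymphoma lines. The 8 genes are IGLL1 and VPREB1, which encode the surrogate light chain, their relative VPREB3, the recombination genes RAG1, RAG2 and DNTT, and the antibody secretion genes IGJ (now named JCHAIN) and MZB1. They were taken by symbol from a table of 25277 symbols, and all 8 were found in it. Mantle cell lymphoma is a cancer of B cells, of which Mino and Z138 are established lines. Each line carried, on a doxycycline-inducible (tet-on) vector, either a small hairpin against the kinase gene BTK or the control vector named sc4. All 4 cultures, controls included, had received doxycycline for 48 hours. The insert of sc4 is unknown from the sources used here. There was 1 library per line and vector, each from 1 stably modified line, so the 2 lines were the only replication. Whether separate cultures of a line would vary as much was not measured. Levels are FPKM, fragments normalized to transcript length and to mapped fragments, so levels of different genes can be set side by side per length. The number of reads is unknown.

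In a precursor B cell, a newly rearranged heavy chain is tested at the cell surface with a surrogate light chain made of VpreB1 (from VPREB1) and lambda 5 (from IGLL1) in place of a true light chain. The RAG1 and RAG2 proteins cut immunoglobulin gene segments for V(D)J recombination, and the DNTT product adds nucleotides at the joints. These genes are known to be shut down as B cells mature. At the other end of B cell life, antibody-secreting cells make the joining chain (from IGJ), which links IgM and IgA into polymers, and the endoplasmic reticulum protein MZB1, which helps antibody chains fold and assemble. Mantle cell lymphoma is held to arise from mature B cells.

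The hairpin and cell type checks came first. BTK measured 37.0 FPKM in control Mino cells and 9.84 with the hairpin, against 51.0 and 12.4 in Z138. With the hairpin, 26.6% of the control level was left in Mino and 24.3% in Z138. All 6 B cell markers reached at least 1 FPKM, and their summed level ran from 984 to 1334 FPKM. All 3 mantle cell lymphoma markers did so in some library, but unevenly. The cyclin gene CCND1 measured 3.18 and 2.62 FPKM in Mino, against 591 and 600.5 in Z138. CD5 went the other way, with 2.33 and 1.70 FPKM in Mino and 0.0751 and 0.0531 in Z138. SOX11 measured 23.6 and 21.5 FPKM in Mino, against 19.8 and 22.1 in Z138. The 5 T cell markers summed to between 2.13 and 4.76 FPKM, with 3 reaching 1 FPKM in some library. The 5 myeloid markers summed to at most 0.473 FPKM, with FCGR3A listed at 0 in all 4 libraries. The 4 erythroid markers summed to at most 0.289, with HBB and HBG1 listed at 0. The 5 stromal and epithelial markers summed to 11.9 and 11.2 FPKM in Mino and to 0.927 and 0.679 in Z138, with KRT19 listed at 0, and their part in the differences between the lines was not tested. Exact zeros need care in this table, since EEF1A1, an elongation factor of every cell, was given as 0 for control Z138 cells but lay between 6404 and 6976 FPKM elsewhere. The tubulin gene TUBB, also used by every cell, was given as 0 in all 4 libraries, so a 0 in this table does not show that a gene was off.

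The 8 genes fell into 3 kinds by level. VPREB3 and MZB1 were abundant in both lines. IGLL1 and IGJ were abundant in Z138 and at 2.29 FPKM or less in Mino. VPREB1, RAG1 and DNTT were at 1.09 FPKM or less in every library, and RAG2 was listed at 0 throughout. The plot of the levels by library shows this order.

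**Figure D1:**
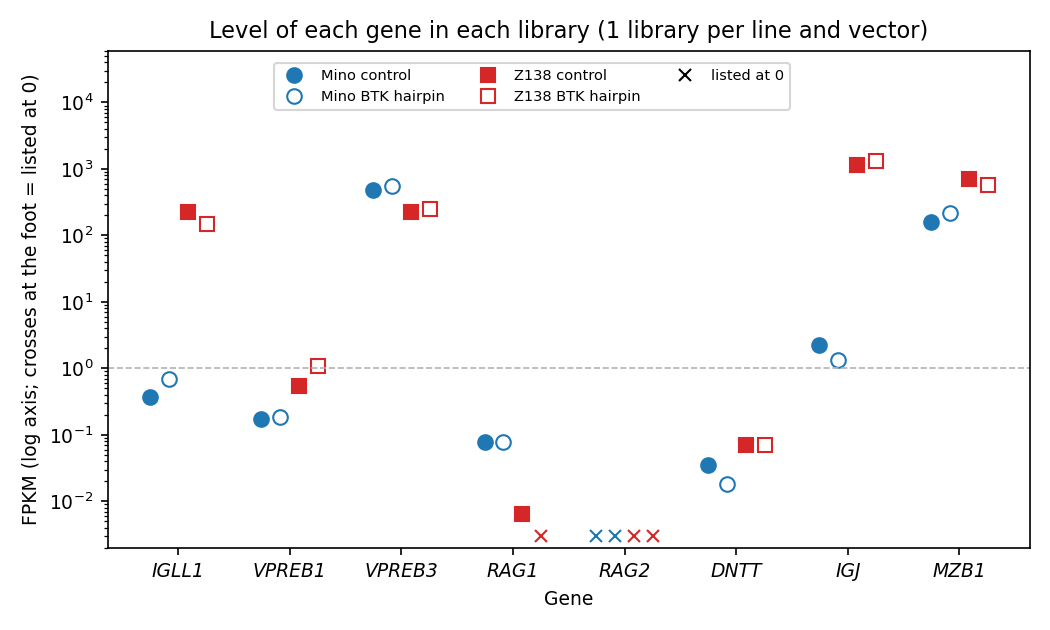
Level of each of the 8 genes in FPKM on a log axis, 1 point per library (circles Mino, squares Z138, filled control, open BTK hairpin; crosses mark values listed at 0; the dashed line is 1 FPKM). IGLL1 and IGJ stand between 151 and 1340 FPKM in Z138 and between 0.370 and 2.29 in Mino, whereas VPREB3 is higher in Mino.

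For 5 of the genes, those with the highest mean level over the 4 libraries, the upstream bases are shown. They are the 250 bases before the gene's start in RefSeq on GRCh38.p14, which is not the hg19 build of the files, read 5′ to 3′ on the gene's own strand. Each starts on the side away from the gene and ends next to its start. Both strands were searched for 5 short motifs known from B cell genes: the octamer ATGCAAAT bound by POU2F factors, the core CCCNNGGG of EBF1 sites, the E-box CAGGTG bound by E2A (the TCF3 product), the E-box CACGTG, and the ETS-IRF composite element. Matches are in capitals. The windows are chr22:23580291-23580540 (minus strand) for IGLL1, chr22:22244536-22244785 (plus strand) for VPREB1, chr22:23754426-23754675 (minus strand) for VPREB3, chr4:70666509-70666758 (minus strand) for IGJ and chr5:139389914-139390163 (minus strand) for MZB1.
IGLL1: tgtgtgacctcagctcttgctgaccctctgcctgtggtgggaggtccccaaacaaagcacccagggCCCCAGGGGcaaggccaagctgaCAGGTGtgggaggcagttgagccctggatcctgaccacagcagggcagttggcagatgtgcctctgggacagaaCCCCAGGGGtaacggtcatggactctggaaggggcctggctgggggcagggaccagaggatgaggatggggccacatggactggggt
VPREB1: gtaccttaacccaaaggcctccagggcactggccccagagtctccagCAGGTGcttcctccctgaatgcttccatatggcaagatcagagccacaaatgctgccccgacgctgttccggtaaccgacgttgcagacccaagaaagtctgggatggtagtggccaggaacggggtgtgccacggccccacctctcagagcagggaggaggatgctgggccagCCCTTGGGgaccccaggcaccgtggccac
VPREB3: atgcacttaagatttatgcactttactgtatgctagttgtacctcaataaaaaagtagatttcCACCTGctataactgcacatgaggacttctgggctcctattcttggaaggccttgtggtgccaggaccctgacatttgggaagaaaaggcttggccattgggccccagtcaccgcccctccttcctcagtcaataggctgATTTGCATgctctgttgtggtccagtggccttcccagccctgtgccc
IGJ: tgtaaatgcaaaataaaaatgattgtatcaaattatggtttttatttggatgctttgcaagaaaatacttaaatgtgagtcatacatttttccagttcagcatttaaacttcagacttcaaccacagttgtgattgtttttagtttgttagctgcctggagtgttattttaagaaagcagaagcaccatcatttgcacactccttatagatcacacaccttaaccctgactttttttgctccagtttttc
MZB1: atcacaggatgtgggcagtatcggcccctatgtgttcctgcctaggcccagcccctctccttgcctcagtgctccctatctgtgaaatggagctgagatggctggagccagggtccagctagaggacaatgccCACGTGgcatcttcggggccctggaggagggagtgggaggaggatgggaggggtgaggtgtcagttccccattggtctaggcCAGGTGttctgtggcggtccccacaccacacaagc

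IGLL1 and VPREB1 both held the EBF1 core and CAGGTG. In IGLL1 the EBF1 core matched in 2 places, each as 2 overlapping matches, beginning 184 and 87 bases before the start. In VPREB1 it matched 29 bases before the start. VPREB3 held the octamer, on the opposite strand, 47 bases before its start, and CAGGTG in the form CACCTG. MZB1 held CACGTG 117 bases and CAGGTG 35 bases before its start. The IGJ window held none of the 5 motifs. Of the windows not shown, those of RAG1 and RAG2 held none either, and that of DNTT held CACCTG 75 bases before its start. Among 35116 promoter windows of the same length, 1.63% held the octamer, 17.1% the EBF1 core, 17.5% CAGGTG, 6.34% CACGTG and 2.41% the ETS and IRF composite. A match describes the letters and is not a measurement of binding.

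The surrogate light chain genes were described first. IGLL1 measured 0.370 FPKM in control Mino cells and 0.705 with the hairpin, against 225 in control Z138 cells and 151 with the hairpin. Both Z138 libraries were far above both Mino libraries. In the Z138 control, 98.6% of all symbols lay below IGLL1, and in the Mino control 50.7%. These shares include the symbols listed at 0: of 25277 symbols, 16007 were above 0 in the Mino control. The mean of the 2 Z138 libraries was 349 times the Mino mean. On the log2(FPKM + 1) scale used for the tests, which understates changes of low genes, the difference was 6.92 (SE 0.20, adjusted p = 1.69e-07 in limma, higher in both vectors). The model fitted line and hairpin over all symbols averaging 1 FPKM or more. IGLL1 entered it only through its level in Z138, so a difference between the lines was given by that filter.

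That adjusted p has to be read against its background. The same model called 67.4% of the 11484 tested symbols different between the lines, with 28.7% of all tested symbols higher and 38.8% lower in Z138. With median ratio scaling the split was even, at 3933 higher and 3961 lower. The Z138 and Mino libraries did not overlap for 86.1% of symbols. A call between these lines is therefore the usual outcome, and size is the better description. By size, IGLL1 was in place 4 of 11484 symbols ordered from the highest difference in Z138. The plot of line differences shows where the 4 tested genes lie in that distribution.

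**Figure D2:**
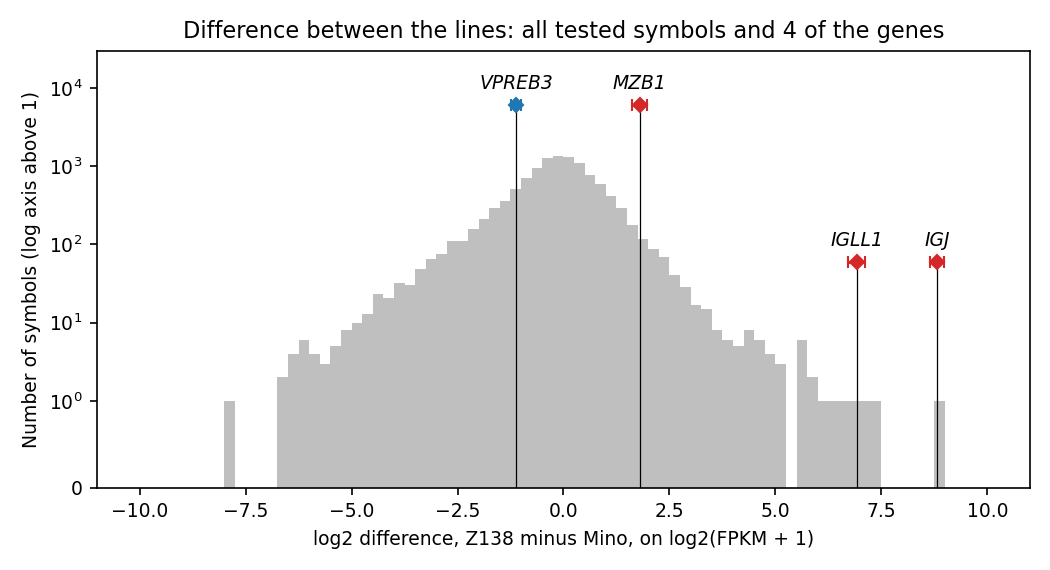
Log2 difference between the lines (Z138 minus Mino, on log2(FPKM + 1)) for all 11484 tested symbols as a histogram with a log count axis, with IGLL1, IGJ, MZB1 and VPREB3 marked (bars are ± SE; the height of a mark has no meaning). IGJ at 8.82 and IGLL1 at 6.92 lie at the right edge, and MZB1 at 1.80 and VPREB3 at −1.12 within the body.

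IGLL1 has near copies among the lambda light chain genes, so its reads could be shared. Of the 852 windows of 50 bases in its longest GENCODE transcript, 9.15% also occurred in transcripts of other genes, among them IGLL5 and IGLC1. Of its windows of 100 bases, 0 of 802 did. IGLL5, whose transcript ends in lambda constant sequence, measured 1419 and 1430 FPKM in Mino, against 3813 and 3165 in Z138. IGLL1 thus stood at 0.0261% and 0.0493% of the IGLL5 level in the Mino libraries and at 5.89% and 4.77% in Z138. The sources used here do not say how shared reads were counted.

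VPREB1, the partner of IGLL1 in the surrogate light chain, measured 0.176 FPKM in control Mino cells and 0.187 with the hairpin, against 0.543 and 1.09 in Z138. It was higher in both Z138 libraries than in either Mino library, but never abundant. In the Z138 control the level of IGLL1 was 414 times that of VPREB1, and with the hairpin 138.1 times. In the Mino libraries the same ratio was 2.10 and 3.77. As listed, the partners of this complex stood at very unequal RNA levels in Z138. How reads that IGLL1 shares with lambda light chain genes were counted is unknown, and its ratios to VPREB1 carry that limit. VPREB1 did not reach a mean of 1 FPKM and was outside the tested set. Fitted without that filter, its line difference was 0.61 (SE 0.12, adjusted p = 0.0129 in limma), where 52.2% of 17650 symbols were called. None of its windows of 50 bases occurred in another gene's transcripts.

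VPREB3 encodes a VpreB-like protein of the endoplasmic reticulum that is also found in mature B cells. It measured 488 FPKM in control Mino cells and 547 with the hairpin, against 223 and 253 in Z138. Both Mino libraries were above both Z138 libraries, the opposite order to IGLL1 and VPREB1. The Mino mean was 2.17 times the Z138 mean, a log2 difference of −1.12 (SE 0.11, adjusted p = 5.66e-05 in limma, lower in Z138 in both vectors). In every library at least 98.6% of all symbols lay below VPREB3. In the Z138 control VPREB3 and IGLL1 stood at almost the same level per length, with a ratio of VPREB3 to IGLL1 of 0.993, and with the hairpin the ratio was 1.68.

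RAG1 and DNTT were far under 1 FPKM, and RAG2 had no value to place on the scale. RAG1 measured 0.0781 FPKM in control Mino cells and 0.0776 with the hairpin. In Z138 it measured 0.00653 without the hairpin and was listed at 0 with it. RAG2, its partner in the recombinase, was listed at 0 in all 4 libraries, as TUBB was, which leaves its level unknown. DNTT measured 0.0358 and 0.0183 FPKM in Mino, against 0.0712 and 0.0699 in Z138. As listed, the lines did not overlap for RAG1 or DNTT, and such values may rest on very few fragments. The share without overlap, 86.1%, is that of the tested symbols, a set that holds neither gene. The 0 of RAG1 in the Z138 hairpin library may not be its level, and the fit given next took it as a value. Without the filter on low values, where 52.2% of symbols were called, RAG1 differed by −0.10 (SE 0.03, adjusted p = 0.0375 in limma) and DNTT by 0.06 (SE 0.03, adjusted p = 0.159).

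The antibody secretion genes were higher in Z138. IGJ measured 2.29 FPKM in control Mino cells and 1.33 with the hairpin, against 1159 in control Z138 cells and 1340 with the hairpin. No other tested symbol was higher in Z138 by as large a log2 difference, or differed by as much in either direction. The difference was 8.82 (SE 0.17, adjusted p = 7.37e-08 in limma, higher in both vectors), and the Z138 mean was 691 times the Mino mean. In the Z138 control 99.6% of all symbols lay below IGJ. In bulk RNA, a smaller number of cells that express a gene and less RNA per cell cannot be told apart.

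MZB1 measured 157 FPKM in control Mino cells and 214 with the hairpin, against 715 and 570.5 in Z138. It was abundant in both lines, and the Z138 libraries lay above the Mino libraries. The Z138 mean was 3.46 times the Mino mean, a log2 difference of 1.80 (SE 0.18, adjusted p = 5.01e-05 in limma, higher in both vectors). MZB1 was in place 407 of 11484 by its rise in Z138. The gap was wider between the controls (2.18) than between the hairpin libraries (1.41).

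The genes next to each of the 8 on the chromosome were then listed, the 5 nearest tested symbols on each side. The 10 neighbours of IGJ had a median line difference of 0.09, ranging from −2.06 to 1.17. Those of IGLL1 had a median of 0.40, from −1.12 for VPREB3 to 1.72. IGJ and IGLL1 lay above the range of their neighbours, and VPREB3 lay just below its own, whose lowest value was −1.01. The neighbours of MZB1 had a median of 0.85, with 7 of 10 above 0 and values up to 3.06, so that MZB1 lay inside their range. The median over all tested symbols was −0.12.

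Genes with the most similar profile over the 4 libraries were found by the Euclidean distance of log2(FPKM + 1) values around their own mean, among 10682 protein-coding symbols. The nearest to IGLL1 was SFRP5, a secreted WNT antagonist, at a distance of 0.32, at 1.03 and 1.07 FPKM in Mino against 250 and 174 in Z138. CCND1 was the third at 0.65. The nearest to IGJ was CCND1 at 1.57, and IGLL1 was the third at 2.06, so IGJ had no close match. A sex-linked gene held the second place for both and is not reported here. The nearest to VPREB3 were DHRS4, BLOC1S5 and GPD1L, at distances of 0.05 to 0.07. Those nearest to MZB1 were C1orf53 (0.03), TEX264 (0.14) and EMG1 (0.14). With 4 libraries, such a ranking says little beyond the line difference and the direction of the hairpin ratios.

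The genes known to work with these 8 were described in 5 lists. The regulators that act on the surrogate light chain and RAG genes did not share one direction between the lines. Of 14 regulators, all tested, 3 were higher and 7 lower in Z138 in limma, with a median of −0.44, against −0.12 over all symbols. Of these regulators, 71.4% were called, against 67.4% of all symbols. For this and the other lists, the background was 28.7% of all symbols higher and 38.8% lower in Z138. EBF1, which with E2A switches on IGLL1 and VPREB1, measured 3.04 and 2.61 FPKM in Mino, against 5.72 and 6.58 in Z138 (difference 0.90, SE 0.15, adjusted p = 0.000909). TCF3 measured 157 and 162 FPKM in Mino, against 217 and 199 in Z138 (0.38, SE 0.12, adjusted p = 0.0204). MYB, a factor of early B cells, was also higher in Z138, by 0.84. On the lower side, IRF8 measured 115 and 126 FPKM in Mino, against 6.85 and 8.75 in Z138, a difference of −3.79 (SE 0.13, adjusted p = 2.31e-07). IRF8 acts with PU.1 at light chain and germinal centre genes. SPIB, an ETS factor of mature B cells, was lower by −2.23, SOX4 by −1.61, IKZF1 by −1.03, FOXO1 by −0.83, SPI1 (which encodes PU.1) by −0.73 and PAX5 by −0.56. FOXO1 and IKZF1 are known regulators of RAG and precursor B cell genes. IRF4, IKZF3, LEF1 and BACH2 did not pass, with differences between −0.33 and 0.13.

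Other markers of the precursor stage were uneven. FLT3 was at 0.0102 FPKM or less and MME at 0.204 or less, whereas CD9 measured 63.0 and 69.6 FPKM in Mino and 13.2 and 31.7 in Z138. CD34 and IL7R, markers of progenitors, were listed at 0 in all 4 libraries, which does not give their level. Of the 11 receptor partners and stage markers, 7 were tested, of which 1 was higher and 5 lower in Z138, 85.7% called against 67.4% of all symbols. IGLL5 was the higher one, by 1.29 (SE 0.12, adjusted p = 4.37e-05 in limma). CD79A and CD79B, the signalling chains of the B cell receptor and its precursor form, were lower by −0.36 and −0.54. The adaptor BLNK was lower by −0.88, the kinase SYK by −0.64 and the tetraspanin CD9 by −1.64.

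The next list held end joining and break response genes, not all of which repair the breaks that RAG makes. Its genes were mostly measured above 1 FPKM in both lines. Of 16, 15 were tested, with 7 higher and 5 lower in Z138, 80.0% called against 67.4% of all symbols, and a median of 0.11. MDC1 was listed at 0 in all libraries and was left out. The Ku genes XRCC5 and XRCC6 were higher in Z138 by 0.51 and 0.34, the kinase gene PRKDC by 0.57, NHEJ1 by 1.13, HMGB1 by 0.72, POLL by 0.51 and XRCC4 by 0.38. The ligase gene LIG4 was lower by −0.64, ATM by −1.12, HMGB2 by −0.86, C9orf142 (which encodes PAXX) by −1.23 and H2AFX by −1.30. The hypermutation and class switching genes were similarly mixed, with 4 higher and 5 lower among 11 tested of 12, 81.8% called against the same 67.4%, and a median of 0.21. APEX1, SMUG1, PMS2 and EXO1 were higher in Z138, by 1.09, 0.97, 0.48 and 0.44. MSH6, part of the mismatch sensor, was lower by −0.85, the polymerase gene POLH by −0.83, APEX2 by −0.73 and REV1 by −0.37.

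The antibody secretion list leaned to Z138 together with IGJ and MZB1. Of 23 genes, all tested, 12 were higher and 4 lower in Z138, with a median of 0.34, against −0.12 over all symbols. Of all tested symbols, 28.7% were higher and 38.8% lower, and with median ratio scaling that split was even. The share called, 69.6%, was close to the 67.4% of all symbols. FKBP11, a folding enzyme of secretory cells, measured 24.4 and 27.3 FPKM in Mino, against 589.7 and 474 in Z138, a difference of 4.30 (SE 0.14, adjusted p = 2.29e-07). PRDX4, SDC1 (the plasma cell antigen CD138), SSR4 and CD38 were higher by 2.38, 2.37, 2.05 and 1.83. HSP90B1, the chaperone that MZB1 assists, measured 178 and 202 FPKM in Mino, against 428 and 490.0 in Z138 (1.27, SE 0.11). PDIA4, HSPA5, TNFRSF17, DERL3, SEC11C and TXNDC5 were higher by 1.64, 1.30, 1.13, 0.41, 0.30 and 0.30. PIGR, the receptor that carries polymeric antibody with a joining chain across epithelium, was lower in Z138 by −2.19, ELL2 by −1.85, SLAMF7 by −1.83 and TNFRSF13B by −0.63. PIGR, ELL2 and SLAMF7 averaged under 1 FPKM in Z138 and were tested only through their level in Mino, so the filter itself gave them a difference. The factors that set the secretory programme did not pass: PRDM1 differed by 0.45 (SE 0.19, adjusted p = 0.0603) and XBP1 by 0.34 (SE 0.17, adjusted p = 0.111). The plot of line differences by list shows FKBP11 and IRF8 at its ends.

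**Figure D3:**
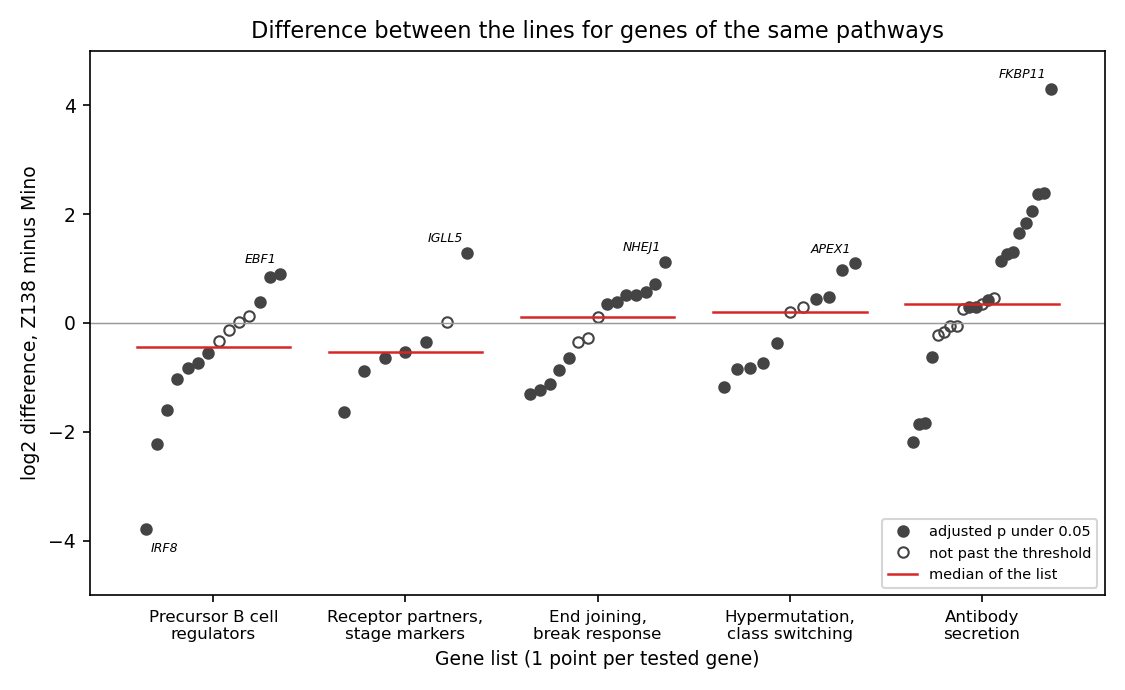
Log2 difference between the lines (Z138 minus Mino) for each tested gene of the 5 lists, sorted within a list (filled, adjusted p under 0.05 in limma; open, not past it; red line, median of the list; the highest gene of each list and IRF8 are named). The medians run from −0.54 for receptor partners and stage markers to 0.34 for antibody secretion.

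The comparison of hairpin with control asked whether BTK knockdown moved these genes in both lines. None of the 4 tested genes passed, and 0.122% of the 11484 symbols did (14 in limma, 320 at an unadjusted p under 0.05). Of all symbols, 0.061% were called higher and 0.061% lower with the hairpin, 7 each. That split moved to 22 higher and 6 lower without symbols listed at 0, 15 and 9 with median ratio scaling, and 1 and 6 with GC and length trends removed. IGLL1 had a mean log2 ratio of −0.13 (95% interval −0.60 to 0.34), IGJ of −0.14 (−0.54 to 0.26), MZB1 of 0.06 (−0.35 to 0.47) and VPREB3 of 0.17 (−0.09 to 0.44). The adjusted p was 1.00 for each of these 4. The intervals rest on how alike the 2 lines were and, more heavily, on a variance shared across symbols. The shared part held 6.88 degrees of freedom, against 1 residual degree of freedom of each symbol. They are not adjusted for the number of symbols tested, whereas a call needs an adjusted p under 0.05. Changes of the sizes inside the intervals, and larger ones too, could therefore go uncalled here. The sign of the mean ratio of IGLL1 turned positive with a pseudocount of 0.1, at 0.10. Of the untested genes, VPREB1 had a ratio of 0.23 (SE 0.12, adjusted p = 1.00 in limma) without the filter on low values, where 0.0113% of symbols were called.

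Line by line, VPREB3 alone of the 4 moved the same way in both, its log2 ratio being 0.17 in Mino and 0.18 in Z138. IGLL1 was higher with the hairpin in Mino (0.32) and lower in Z138 (−0.57). MZB1 had ratios of 0.45 in Mino and −0.33 in Z138, and IGJ of −0.50 and 0.21. None was at least 2-fold on this scale, which 0.644% of symbols were in Mino and 0.784% in Z138. Ratios of opposite sign in the 2 lines were common, at 56.2% of symbols, and 1.44% had them at 0.3 or more in both lines. The Mino ratios of IGLL1 and IGJ come from levels of 0.370 to 2.29 FPKM and depended on the pseudocount: with 0.1 the ratio of IGLL1 was 0.78 and with 5 it was 0.09, and with 5 that of IGJ was −0.20. VPREB1 was at 0.543 and 1.09 FPKM in Z138, a log2 ratio of 0.44, opposite in sign to its partner IGLL1 there.

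In Z138 the ratio of hairpin to control followed the GC content of the transcript across genes (Spearman rho −0.57 over 10924 symbols above 0 in every library), and in Mino hardly (0.12). Genes are not replicates of each other, so no test is given. The 4 genes differ in GC content. The longest GENCODE transcripts of IGLL1, MZB1 and VPREB3 have GC contents of 62.9%, 58.3% and 58.0%, and that of IGJ has 35.8%. With the trends on GC content and length removed, the Z138 ratio of MZB1 moved from −0.33 to −0.19 and that of IGJ from 0.21 to 0.08. That of IGLL1 went from −0.57 to −0.49, and that of VPREB3 from 0.18 to 0.22. In Mino the corrected ratios were 0.28 for IGLL1, 0.41 for MZB1, −0.50 for IGJ and 0.14 for VPREB3. All 8 ratios kept their sign.

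**Figure D4:**
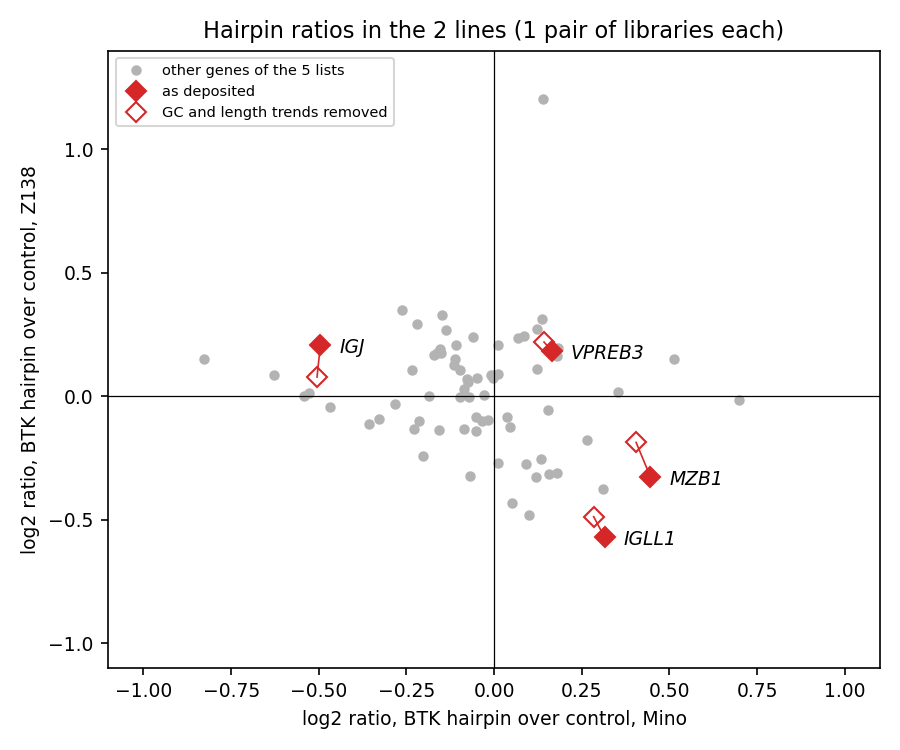
Log2 ratio of hairpin over control in Mino (x) and Z138 (y) for the 4 tested genes as deposited (filled diamonds) and with GC and length trends removed (open diamonds), and for the other genes of the 5 lists (grey), 1 pair of libraries per line. IGLL1 and MZB1 lie at the lower right, IGJ at the upper left and VPREB3 at the upper right.

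None of the genes of the 5 lists passed the hairpin test in limma either, with an adjusted p of 1.00 for every one. At an unadjusted p under 0.05 there was 1 of the 23 antibody secretion genes, 1 of the 7 receptor partners and stage markers, and 0 in the other 3 lists. The antibody secretion list had median ratios of −0.05 in Mino, with 9 of 23 above 0, and −0.00 in Z138, with 11 of 23 above 0. Over all tested symbols the medians were −0.01 and 0.03. HSPA5 and HSP90B1, the chaperones that bind antibody chains, had ratios of 0.51 and 0.18 in Mino and of 0.15 and 0.19 in Z138. PDIA4 had 0.35 and 0.02. SSR4, a subunit at the translocation channel, had 0.31 in Mino and −0.38 in Z138, the same pair of signs as MZB1, and 0.26 and −0.23 with the GC and length trends removed. The median of the end joining list was −0.10 in Mino but 0.17 in Z138, the latter 0.11 with the GC and length trends removed. In Z138, CD9 went from 13.2 FPKM in the control to 31.7 in the hairpin library, past 2-fold on this scale with a log2 ratio of 1.21, and in Mino from 63.0 to 69.6.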

How the data were processed

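RNA was extracted with a column kit and the TruSeq RNA kit of Illumina served for the libraries, per the labels' protocols. The authors deposited 1 table of FPKM values, 1 column per library, per the file headers. TopHat and hg19 are named in the submitters' processing notes; for the FPKM values, program and annotation: not given in the sources used here. Read numbers are unknown: among symbols at or below 0.1 FPKM, the commonest ratio to the Mino control was shared by 5.28% to 20.2% of symbols, and whole reads were not recovered.

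Values were analysed as log2(FPKM + 1) with limma 3.58.1 in R 4.3.3 (additive line and hairpin terms, mean-variance trend) on the 11484 symbols averaging 1 FPKM or more, with Benjamini-Hochberg adjustment at 0.05. Each line has its own control, so the line pairs the libraries. With 1 residual degree of freedom and 6.88 from the variance shared across symbols, p-values only partly measure how alike the lines responded. Of the 8 genes, 4 entered the test. Ratios inside a line were read by size alone. The procedure was run on simulated data with independent noise, without a GC trend or false zeros. That run cannot show how it performs on the deposited values. GC content and length came from GENCODE release 29, which held 97.9% of the tested symbols; cubic splines on both were subtracted from each line's ratios. Promoter sequences came from RefSeq (GRCh38.p14), with 8 of 8 genes matched. Named genes were the 8, BTK, list members past a test or up to 4 with the largest line difference, and the 3 nearest profiles; IRF4, IKZF3, LEF1, BACH2, PRDM1 and XBP1, which did not pass, the genes listed at or near 0, and CD9 in the hairpin comparison were named outside that rule. The genes and lists were chosen with earlier results of these data known. The values of some list genes are not reported here.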

Additional observations from a re-analysis of the deposited data

Results flagged for a closer look

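The hairpin ratios of 3 of the 8 genes had opposite signs in the 2 lines, each line having 1 pair of libraries, and whether the lines differ in this was not tested. For IGLL1 the log2 ratio was 0.32 in Mino but −0.57 in Z138, from 0.370 to 0.705 FPKM and from 225 to 151. MZB1 had 0.45 in Mino and −0.33 in Z138. IGJ had −0.50 in Mino and 0.21 in Z138. The secretory gene SSR4 had 0.31 in Mino and −0.38 in Z138. Among all tested symbols 56.2% had ratios of opposite sign, and 1.44% had opposite ratios of at least 0.3 in both lines, a size chosen after the values had been seen; IGLL1, MZB1 and SSR4 were among the latter as deposited. With the GC and length trends removed, none of these 3 reached 0.3 in both lines: the ratios were 0.28 and −0.49 for IGLL1, 0.41 and −0.19 for MZB1, and 0.26 and −0.23 for SSR4.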

How the results depend on the processing

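In 6 other ways of processing, a call between the lines was again the usual outcome. With the filter kept, 7702 to 8016 of at most 11484 symbols were called in limma, and without it 9214 of 17650. The line differences of IGLL1, IGJ, MZB1 and VPREB3 kept their direction and passed in limma under all 6. They ran from 5.10 to 8.23 for IGLL1, 7.53 to 9.40 for IGJ, 1.77 to 1.93 for MZB1 and −1.12 to −0.98 for VPREB3. With 1 library left out, an alternative added after seeing the data and fitted without the hairpin term, they ran from 6.64 to 7.21, 8.57 to 9.06, 1.57 to 2.02 and −1.21 to −1.03, and between 6297 and 6957 symbols were called, against 8016 with all libraries in the same model and 7745 with the hairpin term. Median ratio scaling moved the median line difference of all symbols by 0.12. The adjusted p of a line difference in limma moved widely between the settings. For IGJ it was 5.53e-20 without symbols listed at 0 and 0.000435 without the filter, and for IGLL1 8.70e-18 and 0.000518. In the settings that keep the filter, IGLL1 entered only through its level in Z138. For the hairpin, 14 symbols were called in limma, against 9 with a pseudocount of 5, 2 without the filter, 28 without symbols listed at 0, 24 with median ratio scaling, 7 with the GC and length trends removed, and 0 without the line block that pairs the libraries (replicate block; 9 at an unadjusted p under 0.05). None of the 4 genes passed in any of these. The mean hairpin ratio of IGLL1 was 0.10 with a pseudocount of 0.1 and that of IGJ 0.0029 with 5, both opposite in sign to the reported values. At least 2-fold within a line were 131 symbols in Mino with a pseudocount of 0.1 and 45 with 5, against 74, and 154 and 53 in Z138, against 90. The cause of these shifts was not tested. A library left out of the hairpin comparison leaves no residual degree of freedom, so only the values of each line remain. Levels under about 1 FPKM cannot be given an error here, because the number of reads is unknown.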

Other observations

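Some of the T cell markers were above 1 FPKM in only 1 of the lines, at low level. CD3G was listed at 0 in both Mino libraries and was at 2.71 and 2.48 FPKM in Z138. CD3E measured 0.0859 and 0.161 FPKM in Mino, against 1.69 and 2.07 in Z138, whereas CD3D stayed at 0.183 FPKM or less in all 4. CD8A went the other way, with 2.01 and 1.38 FPKM in Mino and 0.0210 or less in Z138. The B cell surface gene CD22 measured 107 and 102 FPKM in Mino, against 3.34 and 5.96 in Z138, and MS4A1, which encodes CD20, at 47.8 and 43.5 in Mino and at 84.7 and 113 in Z138. EPCAM measured 7.29 and 7.56 FPKM in Mino, against 0.0142 or less in Z138. These genes were listed as markers and are given as values.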
